A study of Mus musculus with 8 samples.

Results

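De novo lipogenesis, the synthesis of fatty acids from sugar-derived carbon, was examined through 10 genes in adipose tissue macrophages: Acly and Me1, which supply carbon and reducing power, Acaca and Fasn, which build the fatty acid chain, Elovl6, Scd1 and Scd2, which lengthen and desaturate it, and the regulators Thrsp, Srebf1 and Mlxipl. The members were named by symbol and were chosen with earlier results of these data known. All 10 were present in both deposited tables, among 17740 genes for mice on a high-fat diet (HFD) and 16436 for mice on normal diet (ND, labelled as chow), and all 10 passed the filter on low counts in both. Wild-type C57BL/6J male mice entered the diets at 6 weeks of age, and HFD feeding lasted 8 weeks. The duration of ND feeding was not given for these libraries. Macrophages were sorted from collagenase-digested epididymal white adipose tissue (eWAT). Adhesion-related macrophages (ARMs) came from the floating adipocyte layer, recovered after the adipocytes had been broken by vortexing with beads, and SMs (labelled NARM) came from the stromal vascular fraction. Each of the 4 groups had 2 libraries, and each library pooled 6 HFD or 10 ND mice, so the spread between libraries is a spread between pools.

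In textbook terms, ATP-citrate lyase (Acly) turns citrate exported from mitochondria into cytosolic acetyl-CoA, acetyl-CoA carboxylase (Acaca) makes malonyl-CoA from it, and fatty acid synthase (Fasn) condenses these units into palmitate with NADPH, part of which comes from malic enzyme (Me1). Elovl6 extends palmitate to stearate, and the stearoyl-CoA desaturases introduce the double bond that gives oleate and palmitoleate. Scd1 is the main isoform of mouse adipocytes and lipogenic liver, and Scd2 is best known from brain and developing tissues. The transcription factors SREBP-1 (Srebf1) and ChREBP (Mlxipl) drive these genes in response to insulin and to sugar, and Thrsp (Spot 14) is a small lipogenic protein abundant in fat and liver.

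Estimated counts summed to between 18288775 and 19040133 in the HFD libraries and between 14508824 and 16319038 in the ND libraries. Between replicates the chi-square per gene averaged 4.06 to 9.59, above the value of 1 given by counting error. Levels are given as FPKM, fragments per kilobase of transcript scaled to library size, which can be compared between genes. Changes are log2 fold changes of ARMs over SMs ± standard error (SE), fitted within each diet with edgeR's quasi-likelihood test on the estimated counts. The SE was derived from that test, as the size of the log2 change divided by the square root of its F statistic. Calls required an adjusted p (Benjamini-Hochberg) under 0.05 together with a fold change above 1.5. For any one gene, 2 libraries against 2 allow no exact two-sided p smaller than 0.333, so every adjusted p rests on a spread that edgeR shares across genes. The sorted cells carried the macrophage markers throughout. Adgre1, which encodes F4/80, was at 306 to 339 FPKM in all 8 libraries, and none of 10 macrophage markers was called in either diet.

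The members lie on several mouse chromosomes (GRCm38.p6, the mm10 build). Acaca (chr11:84129635-84401651, plus strand), Acly (chr11:100476352-100528000, minus), Fasn (chr11:120805958-120825166, minus) and Srebf1 (chr11:60199084-60224186, minus) share chromosome 11. Scd2 (chr19:44293676-44306864, plus) and Scd1 (chr19:44394450-44407709, minus) lie on chromosome 19, with the paralog Scd4 (chr19:44333326-44346743) between them. Me1 (chr9:86581363-86695914, minus), Thrsp (chr7:97412933-97417550, minus), Elovl6 (chr3:129532386-129638495, plus) and Mlxipl (chr5:135089890-135139768, plus) lie apart. Exons of Elovl6, Me1, Srebf1 and Mlxipl overlap an annotated gene on the opposite strand, and whether the counting used strand was not given in the sources used here.

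RefSeq start-site windows were found for 8 of the 10 members, 12 windows in all, and none for Scd1 and Scd2. The 250 bases upstream of the start site are shown for 3 genes that were higher in ARMs, Fasn, Thrsp and Me1, and for Acly, which was not. The box CCAAT, read by the factor NF-Y, was searched on both strands (its reverse complement is ATTGG) and is in capitals.
Fasn, chr11:120824548-120824797, minus strand: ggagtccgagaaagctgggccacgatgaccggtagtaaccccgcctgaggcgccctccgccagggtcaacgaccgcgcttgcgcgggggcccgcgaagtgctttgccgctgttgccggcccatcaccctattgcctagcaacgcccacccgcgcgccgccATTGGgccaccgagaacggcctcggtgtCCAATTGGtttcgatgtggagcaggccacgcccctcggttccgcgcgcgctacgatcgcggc
Thrsp, chr7:97417551-97417800, minus strand: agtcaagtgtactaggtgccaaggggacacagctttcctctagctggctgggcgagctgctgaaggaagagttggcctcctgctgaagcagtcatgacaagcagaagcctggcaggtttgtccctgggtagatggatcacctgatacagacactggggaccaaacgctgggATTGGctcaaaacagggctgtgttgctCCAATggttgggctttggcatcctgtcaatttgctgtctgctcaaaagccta
Me1, chr9:86695915-86696164, minus strand: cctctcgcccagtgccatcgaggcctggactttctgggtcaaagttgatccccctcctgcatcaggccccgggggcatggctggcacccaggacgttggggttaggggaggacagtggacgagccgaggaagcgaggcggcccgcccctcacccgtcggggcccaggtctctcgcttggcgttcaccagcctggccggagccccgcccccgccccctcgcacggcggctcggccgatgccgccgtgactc
Acly, chr11:100528001-100528250, minus strand: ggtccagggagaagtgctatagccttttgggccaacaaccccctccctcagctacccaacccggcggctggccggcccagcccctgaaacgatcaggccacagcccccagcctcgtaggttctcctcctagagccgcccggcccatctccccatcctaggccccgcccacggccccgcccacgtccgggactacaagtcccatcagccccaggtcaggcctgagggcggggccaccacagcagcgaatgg
The Fasn window held 3 matches, beginning at positions -90, -62 and -59 relative to the start site, and the last pair overlaps on opposite strands. The Thrsp window held 2, at -79 and -52. This window of Me1 and the window of Acly held none, whereas GGGCGG (reverse complement CCGCCC), the GC box, occurred 3 times in Me1 and 4 times in Acly. Uncalled members held CCAAT too: a pair of Srebf1 windows had it at -166 and -30 and an Mlxipl window at -173. The other Me1 window had it at -208. Over all 32851 mouse windows of this length, 33.8% held CCAAT and 32.7% held GGGCGG, so each is common. The E-box CACGTG, held by 6.02% of windows, occurred in 1 of the members' windows, an Mlxipl window, and TCACNCCAC, the SRE-like motif held by 1.05%, in 1 other Mlxipl window. These matches are descriptions of the sequence only.

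Of the 10 members, 5 were called higher in ARMs of HFD mice and 5 in ARMs of ND mice, and none was called lower. They were the same 5 genes in both diets: Scd1, Scd2, Fasn, Thrsp and Me1. Over all genes tested, 4.46% were called higher in HFD mice (595 of 13337) and 3.55% in ND mice (442 of 12441), 0.292% and 0.129% were called lower, and 1.64% of the genes tested in both diets were called higher in both. By TMM counts per library size (CPM), both ARM libraries exceeded both SM libraries for 6 members in each diet, beside 26.2% (HFD) and 21.1% (ND) of all genes. The median log2 change of the members was 0.80 in HFD mice and 0.53 in ND mice, beside -0.01 and -0.02 over all genes tested. The 10 members were chosen with earlier results of these data known, and the study displayed Scd1, Fasn and Thrsp among genes selected from these same libraries. The counts, medians and directions given here are therefore not independent evidence. The enzymes at the entry to the pathway, Acly and Acaca, the elongase Elovl6 and both transcription factors were not called in either diet.

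**Figure D1:**
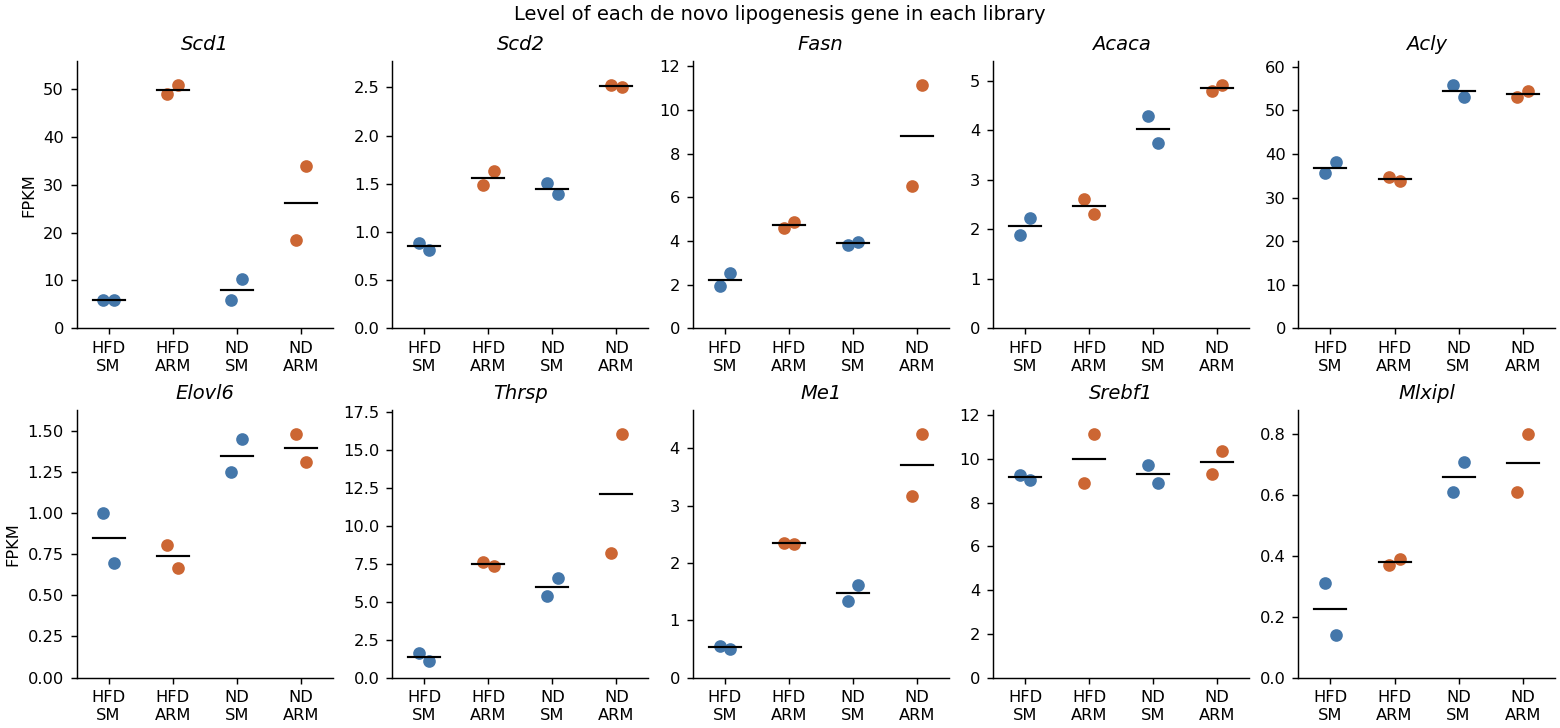
FPKM of each of the 10 genes (vertical axis from 0) in every library, with blue points for SMs, orange points for ARMs and a black line at the mean of the 2 libraries of each diet and cell type. Scd1, Thrsp, Me1, Fasn and Scd2 were higher in both ARM libraries than in both SM libraries of each diet, whereas Acly was at 33.8 to 38.1 FPKM in all 4 HFD libraries.

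**Figure D2:**
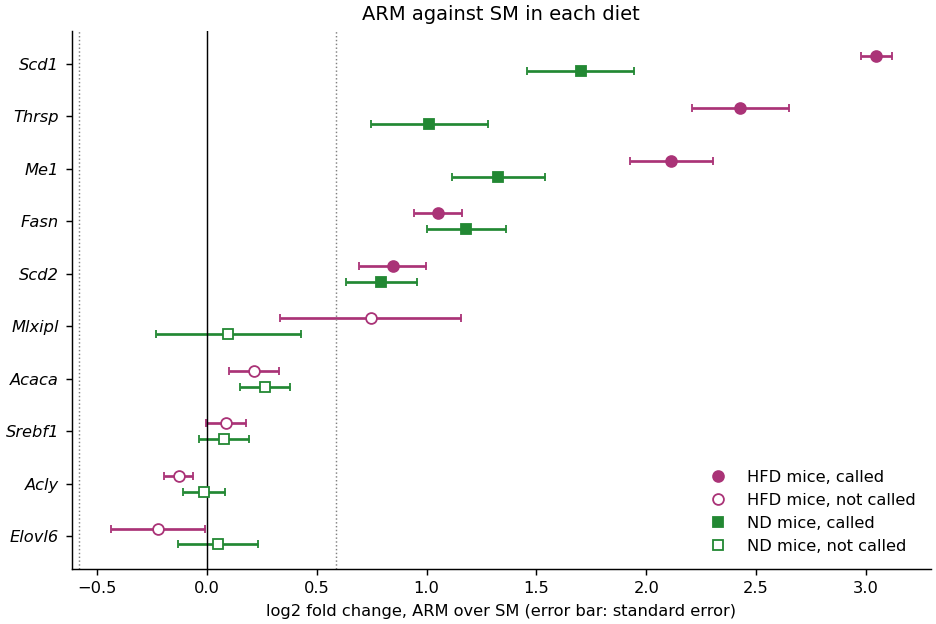
log2 fold change of ARMs over SMs (horizontal axis, error bars SE) for each gene in HFD mice (circles) and ND mice (squares), filled where the gene was called, with dotted lines at a fold change of 1.5. Scd1 had the largest value in each diet, 3.05 and 1.70, and the 5 uncalled genes lay between -0.23 and 0.75.

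Among the suppliers of carbon and reducing power, Acly and Me1 differed. Acly was read at 35.6 and 38.1 FPKM in HFD SMs, 34.8 and 33.8 in HFD ARMs, 55.8 and 53.0 in ND SMs and 53.1 and 54.4 in ND ARMs. The HFD ARM libraries thus lay just below the SM libraries and the ND groups overlapped, and the log2 changes were -0.13 ± 0.0659 in HFD mice (edgeR adjusted p = 0.281) and -0.01 ± 0.0942 in ND mice (adjusted p = 0.972). Me1, the cytosolic malic enzyme, was at 0.55 and 0.50 FPKM in HFD SMs against 2.35 and 2.33 in HFD ARMs. In ND mice it was at 1.33 and 1.62 in SMs against 3.17 and 4.24 in ARMs. The Me1 groups did not overlap in either diet, and ARMs were 4.33-fold higher in HFD mice (log2 2.12 ± 0.190, edgeR adjusted p = 0.000126) and 2.51-fold higher in ND mice (log2 1.33 ± 0.213, adjusted p = 0.00154).

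Of 9 further genes for carbon and NADPH supply, 1 was called higher in each diet and none lower. It was Pcx, the mitochondrial pyruvate carboxylase, at 0.77 and 0.79 FPKM in HFD SMs and 2.52 in both HFD ARM libraries, and at 1.43 and 1.22 in ND SMs and 2.75 and 4.29 in ND ARMs. The log2 change of Pcx was 1.67 ± 0.151 in HFD mice (edgeR adjusted p = 0.00013) and 1.41 ± 0.220 in ND mice (adjusted p = 0.00121). Me2, a mitochondrial malic enzyme singled out after its values were seen, was at 13.8 and 16.2 FPKM in HFD SMs and 11.2 and 12.2 in HFD ARMs, and its log2 difference of -0.41 ± 0.0794 had an edgeR adjusted p of 0.0103 but stayed under the 1.5-fold threshold. Its ND difference was -0.38 ± 0.160 (edgeR adjusted p = 0.263). The pentose phosphate enzymes G6pdx and Pgd, the major NADPH source of many cells, had log2 differences of 0.01 and -0.02 in HFD mice and -0.0022 and 0.06 in ND mice. This list had a median of 0.05 (HFD) and 0.04 (ND), close to that of all genes.

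At the carboxylation step, Acaca was read at 1.88 and 2.24 FPKM in HFD SMs and at 2.62 and 2.31 in HFD ARMs. In ND mice it was at 4.29 and 3.75 in SMs and 4.8 and 4.91 in ARMs. The ARM libraries were the higher ones in both diets by a small margin (in HFD mice they overlapped on the CPM scale), and the log2 differences, 0.21 ± 0.115 in HFD mice (edgeR adjusted p = 0.311) and 0.26 ± 0.114 in ND mice (adjusted p = 0.279), did not pass the test. Acacb, the isoform at the mitochondrial surface that controls fatty acid entry for oxidation, was far lower, at 0.08 FPKM in each HFD SM library and 0.18 and 0.26 in HFD ARMs, and its log2 change of 1.46 ± 0.357 was called in HFD mice (edgeR adjusted p = 0.0302) from 12 to 40 counts per library. In ND mice the Acacb difference was 1.24 ± 0.424 and was not called (edgeR adjusted p = 0.132). The HFD call of Acacb was lost with DESeq2, without a filter on low counts and whenever any 1 of the 4 HFD libraries was left out. The limma fits did not test Acacb, as they required at least 1 FPKM in at least 2 libraries.

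Fasn, the multidomain synthase that releases palmitate, was at 1.93 and 2.53 FPKM in HFD SMs and at 4.58 and 4.85 in HFD ARMs. In ND mice it was at 3.82 and 3.97 in SMs and at 6.52 and 11.1 in ARMs. Both ARM libraries exceeded both SM libraries in each diet, although the ND ARM libraries lay far apart. ARMs were 2.07-fold higher in HFD mice (log2 1.05 ± 0.110, edgeR adjusted p = 0.0003015) and 2.27-fold higher in ND mice (log2 1.18 ± 0.180, adjusted p = 0.00102).

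Thrsp, whose protein binds Mid1ip1, an activator of acetyl-CoA carboxylase, was at 1.65 and 1.07 FPKM in HFD SMs and at 7.61 and 7.36 in HFD ARMs. In ND mice it was at 5.36 and 6.55 in SMs and at 8.20 and 16.03 in ARMs. The groups did not overlap, with a wide gap in HFD mice and a narrow one in ND mice. The change was 5.39-fold in HFD mice (log2 2.43 ± 0.219, edgeR adjusted p = 0.000126) and 2.02-fold in ND mice (log2 1.01 ± 0.264, adjusted p = 0.0396). The ND call rested on single libraries: it was lost without ND ARM replicate 2 (log2 0.45, edgeR adjusted p = 0.564) and without ND SM replicate 1 (log2 0.87, adjusted p = 0.165). The Thrsp paralog Mid1ip1 had a log2 difference of 0.03 ± 0.0790 in HFD mice (edgeR adjusted p = 0.896) and -0.16 ± 0.105 in ND mice (adjusted p = 0.554).

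Elovl6, which lengthens palmitate, was low in all libraries, at 0.67 to 1 FPKM in HFD mice and 1.25 to 1.48 in ND mice. The ARM and SM libraries overlapped in both diets, with log2 differences of -0.23 ± 0.214 (edgeR adjusted p = 0.597) and 0.05 ± 0.184 (adjusted p = 0.945). None of the other elongation genes was called, out of 10 tested (HFD) and 9 tested (ND). The most abundant of them, Hacd4, Tecr, Elovl1 and Hsd17b12, were each at 40.2 FPKM or more on average in HFD ARMs and had HFD log2 differences of -0.24, 0.08, 0.04 and -0.10. Of these, Hacd4 had an edgeR adjusted p of 0.0319 at a difference under the 1.5-fold threshold.

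The desaturases carried the widest contrast. Scd1 was read at 5.86 and 5.93 FPKM in HFD SMs and at 48.8 and 50.7 in HFD ARMs, and at 5.84 and 10.3 in ND SMs and 18.4 and 33.9 in ND ARMs. Scd2 was read at 0.89 and 0.81 FPKM in HFD SMs and 1.49 and 1.63 in HFD ARMs, and at 1.51 and 1.39 in ND SMs and 2.52 and 2.50 in ND ARMs. Both genes were higher in both ARM libraries than in both SM libraries of each diet. The highest Scd1 levels were those of HFD ARMs, whereas the highest Scd2 levels were those of ND ARMs.

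In HFD mice Scd1 was 8.28-fold higher in ARMs (log2 3.05 ± 0.0689, edgeR adjusted p = 7.03e-09) and Scd2 1.80-fold higher (log2 0.85 ± 0.152, adjusted p = 0.0067). In ND mice Scd1 was 3.25-fold higher (log2 1.70 ± 0.245, edgeR adjusted p = 0.00071) and Scd2 1.73-fold higher (log2 0.79 ± 0.162, adjusted p = 0.00903). The Scd2 call was lost in HFD mice without HFD ARM replicate 1 or without HFD ARM replicate 2, with an edgeR adjusted p of at most 0.104. In ND mice it was lost without ND ARM replicate 2 (edgeR adjusted p = 0.0641) and without ND SM replicate 2 (adjusted p = 0.053), at log2 changes of 0.74 to 0.85 over the 4 fits. The Scd1 call was kept in edgeR whichever library was left out. Under DESeq2, of the 5 ND calls that of Me1 was kept, and Scd1 (DESeq2 adjusted p = 0.0929), Thrsp (0.0704), Fasn (0.0524) and Scd2 (0.0503) were not.

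The ratio of Scd1 to Scd2 FPKM put both genes on 1 scale. It was 6.58 and 7.32 in HFD SMs, 32.7 and 31.1 in HFD ARMs, 3.87 and 7.37 in ND SMs and 7.30 and 13.6 in ND ARMs. The HFD ARM libraries stood apart from all others, and the ND groups overlapped. The ratio was 4.59-fold higher in ARMs of HFD mice (exact permutation p = 0.333, the smallest possible with 2 against 2) and 1.86-fold higher in ARMs of ND mice (exact permutation p = 0.667). Over both diets, permuting within each, it was 2.93-fold higher, with a two-sided exact p of 0.111 where 0.0556 is the smallest the 36 arrangements allow. With these numbers of libraries no outcome could have reached 0.05, so the ratios are given as values.

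Scd1 and Scd2 are paralogs and part of their sequence is shared. Of the 5406 windows of 50 bases in the Scd2 transcript, 145 (2.68%) also occurred in Scd1. Of the 4783 such windows in the Scd1 transcript, 145 (3.03%) also occurred in Scd2. The Scd2 counts of the HFD libraries were not whole numbers, so reads had been shared out among genes there. The rise of Scd2 from SMs to ARMs was 1.79% of the rise of Scd1 in HFD mice and 6.60% in ND mice, both in CPM, and the part of shared reads in the Scd2 change was not tested. The other paralog genes of the cluster, Scd3 and Scd4, were read in the HFD table alone and were not analysed here for ND. Scd4 was at 0.72 and 0.81 FPKM in SMs and 1.63 and 1.09 in ARMs (log2 0.81 ± 0.251, edgeR adjusted p = 0.0742) and Scd3 at 0.29 to 0.40 throughout (log2 0.09 ± 0.339, adjusted p = 0.917). The polyunsaturated-fat desaturases Fads1, Fads2 and Fads3 had HFD differences of 0.19, 0.50 and 0.21 and ND differences of 0.04, 0.94 and 0.36, with none called.

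Both transcription factors were measured at the transcript level. Srebf1 was at 9.27 and 9.05 FPKM in HFD SMs and 8.89 and 11.1 in HFD ARMs, and at 9.70 and 8.90 in ND SMs and 9.31 and 10.4 in ND ARMs. Its groups overlapped in both diets, with log2 differences of 0.09 ± 0.0916 (edgeR adjusted p = 0.647) and 0.08 ± 0.114 (adjusted p = 0.839). Mlxipl was near the lower end of detection, at 0.31 and 0.14 FPKM in HFD SMs and 0.37 and 0.39 in HFD ARMs, and at 0.61 and 0.71 in ND SMs and 0.61 and 0.80 in ND ARMs. The HFD log2 difference of Mlxipl, 0.75 ± 0.413 (edgeR adjusted p = 0.324), and the ND difference, 0.10 ± 0.331 (adjusted p = 0.941), did not pass the test, and their SEs leave room for changes of the size seen for Scd2.

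Of 15 further regulators, which included the SREBP escorts and proteases and the LXR receptors, 14 were tested in each diet and none was called. Their log2 differences had a median of -0.05 (HFD) and 0.03 (ND). Insig1, a sterol-sensitive brake on SREBP processing, had differences of -0.22 ± 0.0649 (edgeR adjusted p = 0.0597) and 0.02 ± 0.104 (adjusted p = 0.958). Nr1h3, which encodes LXRα and was singled out after its values were seen, was at 5.82 and 6.74 FPKM in HFD SMs and 8.42 and 10.3 in HFD ARMs. Its log2 difference of 0.54 ± 0.124 had an edgeR adjusted p of 0.0232 but stayed under the 1.5-fold threshold, and the ND difference was 0.49 ± 0.188 (adjusted p = 0.198).

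**Figure D3:**
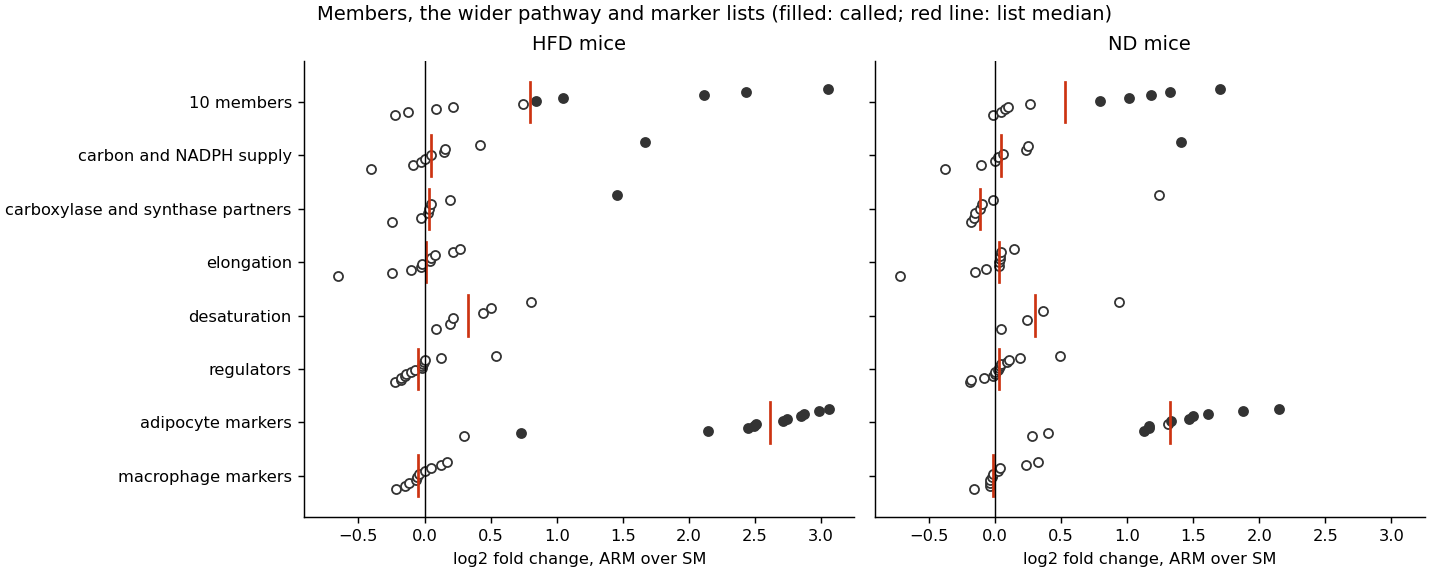
log2 fold change of ARMs over SMs (horizontal axis) for the 10 members, the further genes of the pathway by list, and the adipocyte and macrophage markers, in HFD mice (left) and ND mice (right), with 1 point per gene tested, filled where called, and a red line at each list's median. Points of the members and of the adipocyte markers reached 3.05 and 3.06 in HFD mice, and the other pathway lists had medians between -0.12 and 0.33.

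Over the 50 further pathway genes, 2 of the 46 tested were called higher in HFD mice (Pcx and Acacb) and 1 of the 42 tested in ND mice (Pcx), and none was called lower. Their median was 0.02 (HFD) and 0.03 (ND). The share called was 4.46% of all genes in HFD mice, so the further pathway genes were near the background.

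The order of the levels differed between cell types. In HFD ARMs Scd1 ranked first among the members at 49.7 ± 1.34 FPKM (SD, n = 2), above Acly at 34.3 ± 0.686 and Srebf1 at 10 ± 1.57. In HFD SMs Acly ranked first at 36.8 ± 1.80, above Srebf1 at 9.16 ± 0.156, with Scd1 next at 5.90 ± 0.0495 (SD, n = 2). The libraries of Acaca and Me1 overlapped in HFD ARMs, as did those of Fasn and Acaca and of Scd2 and Elovl6 in HFD SMs. In ND mice Acly ranked first in both cell types, at 53.7 ± 0.962 FPKM in ARMs and 54.4 ± 1.95 in SMs, and Thrsp, Srebf1 and Fasn overlapped in ARMs. Mlxipl was the lowest member in all 4 groups.

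Whether the ARM against SM change differed between diets was tested in 1 fit of all 8 libraries. None of the 10 members passed at an adjusted p under 0.05, beside 0.165% of all genes (22 of 13358). By an unadjusted p under 0.05 there were 3 members, Scd1, Thrsp and Me1, beside 7.61% of all genes. The change was larger in HFD mice by 1.34 ± 0.344 on the log2 scale for Scd1 (edgeR adjusted p = 0.191), by 1.40 ± 0.427 for Thrsp (adjusted p = 0.293) and by 0.77 ± 0.298 for Me1 (adjusted p = 0.515). For Scd2 the difference between diets was 0.04 ± 0.201 (edgeR adjusted p = 0.99) and for Fasn -0.14 ± 0.271 (adjusted p = 0.971). With each library left out in turn, the difference ranged from 0.89 to 1.86 for Scd1 and from 1.02 to 1.98 for Thrsp. Both were largest without ND ARM replicate 2, the ND ARM library with the higher level of both genes. The size of the difference for these genes thus depended on single libraries.

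Levels were also set side by side between diets, without a test, because the tables of the diets were made separately and diet and table cannot be told apart. In ARMs, both HFD libraries lay below both ND libraries in FPKM for 8 of the 10 members, where 46% of all genes tested in both diets did so. Of these members, Thrsp overlapped in CPM scaled within each diet, at 8.23 and 7.85 in HFD ARMs and 7.75 and 15.3 in ND ARMs. Scd1 was the exception in the other direction, 1.90-fold higher in HFD ARMs with both libraries above those of ND (25.8% of all genes lay above), and Srebf1 overlapped. In SMs, again in FPKM, 8 members were lower in both HFD libraries (49.5% of all genes), none was higher in both (24.6%), and Scd1 and Srebf1 overlapped. The median log2 ratio of HFD over ND FPKM was -0.69 for the members in ARMs and -0.79 in SMs, beside -0.12 and -0.15 over all genes. With CPM the members' medians were -0.61 and -0.69 and those of all genes -0.02 and -0.01.

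The ratio of ND over HFD was larger in SMs than in ARMs for Thrsp, Mlxipl, Me1 and Scd2, and larger in ARMs for Fasn, Elovl6, Acly and Acaca. Thrsp was 4.38-fold higher in ND than in HFD SMs by FPKM, Mlxipl 2.93-fold, Me1 2.81-fold and Acaca 1.95-fold. In ARMs the corresponding ratios were 1.62, 1.86, 1.58 and 1.97. The transcript length implied by count and FPKM was 1.14 times greater in the HFD table than in the ND table for Thrsp, beside a median of 1.06 over all genes, which enters such a ratio directly.

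**Figure D4:**
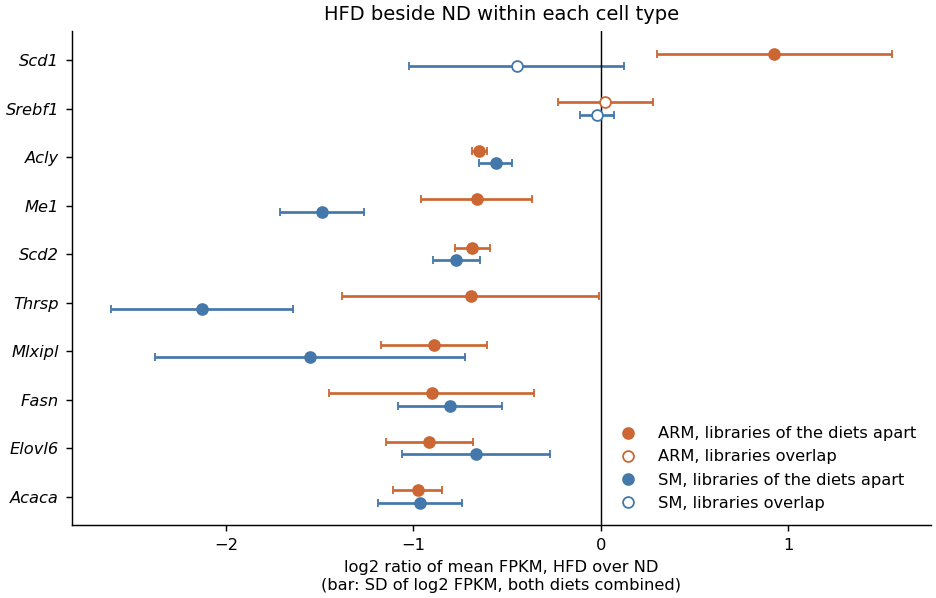
log2 ratio of mean FPKM, HFD over ND (horizontal axis), for each gene in ARMs (orange) and SMs (blue), with bars for the SD of log2 FPKM of both diets combined and open points where the libraries of the diets overlap. Scd1 in ARMs lay to the right of 0 at 0.93, and 8 genes lay to the left of 0 in both cell types without overlap in FPKM. Thrsp in ARMs overlapped in CPM.

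The adipocyte markers moved with the called members. Of 12 such markers, 11 were called higher in HFD ARMs and 9 in ND ARMs, with median log2 changes of 2.61 and 1.32. Their summed level was 50.2 to 51.3 FPKM in HFD SMs and 213 to 230 in HFD ARMs, and 91.4 to 115 in ND SMs and 182 to 298 in ND ARMs, and none of the 12 was at 0 in all libraries. Adipoq, the adipocyte hormone adiponectin, was at 1.90 and 1.99 FPKM in HFD SMs, 12.99 and 15.7 in HFD ARMs, 2.92 and 4.72 in ND SMs and 7.61 and 13.7 in ND ARMs. Plin1, the coat protein of adipocyte lipid droplets, was at 0.47 and 0.39 FPKM in HFD SMs, 3.37 and 3.38 in HFD ARMs, 0.63 and 0.81 in ND SMs and 1.58 and 3.77 in ND ARMs. The order of the libraries in Adipoq within ND mice was the order in Scd1. In bulk samples, fewer cells of a type and less RNA per cell cannot be told apart.

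The ratio of each member to Adipoq was computed after these values were seen. Scd1 FPKM divided by Adipoq FPKM was 3.08 and 2.98 in HFD SMs, 3.76 and 3.22 in HFD ARMs, 2 and 2.17 in ND SMs and 2.42 and 2.47 in ND ARMs. From the lowest to the highest library this ratio spanned 1.26-fold in HFD mice, where Scd1 itself spanned 8.65-fold, and 1.24-fold in ND mice, where Scd1 spanned 5.81-fold. The same span of the ratio was 1.86-fold and 1.70-fold for Thrsp and 1.95-fold and 1.47-fold for Me1, in HFD and ND mice. It was 4.12-fold and 1.61-fold for Fasn, and 4.52-fold and 2.84-fold for Scd2. For Acly, whose own level spanned 1.13-fold and 1.05-fold, the ratio spanned 8.91-fold and 4.81-fold. Adipoq is also the gene with the highest correlation with Scd1 over these libraries, so the span depends on the marker taken. Divided instead by the sum of the 12 adipocyte markers, Scd1 was at 0.117 and 0.116 in HFD SMs and 0.229 and 0.220 in HFD ARMs, a span of 1.98-fold, and its span in ND mice was 1.78-fold. On that scale Scd2 spanned 2.54-fold (HFD) and 1.97-fold (ND), Thrsp 1.71-fold and 1.30-fold, and Me1 1.13-fold and 1.24-fold. The contrast between Scd1 and Scd2 in these spans therefore changed in size with the denominator. Car3 (20.5 FPKM in HFD SMs, 118 in HFD ARMs) and Lipe (15.9 and 20.5) were the largest parts of the marker sum in HFD mice. Lipe was the marker not called there (log2 0.30), so it made up more of the sum in SMs than in ARMs. A span has no sign. Per marker sum, HFD Scd2 was lower in ARMs (0.00699 and 0.00709) than in SMs (0.0177 and 0.0158), and Scd1 was higher. The sum itself was 4.37-fold higher in HFD ARMs, so any gene that rose less falls on this scale. Fasn, Acaca, Acly, Elovl6, Srebf1 and Mlxipl were likewise lower in both HFD ARM libraries, and Thrsp and Me1 overlapped. Per Adipoq, Scd2 was also lower in HFD ARMs, at 0.115 and 0.104 against 0.468 and 0.407 in SMs. So were Fasn, Acaca, Acly, Elovl6, Srebf1, Mlxipl and Me1. In ND mice the Scd2 values of ARMs and SMs overlapped on both scales. The part of adipocyte RNA in the members' changes was not tested.

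**Figure D5:**
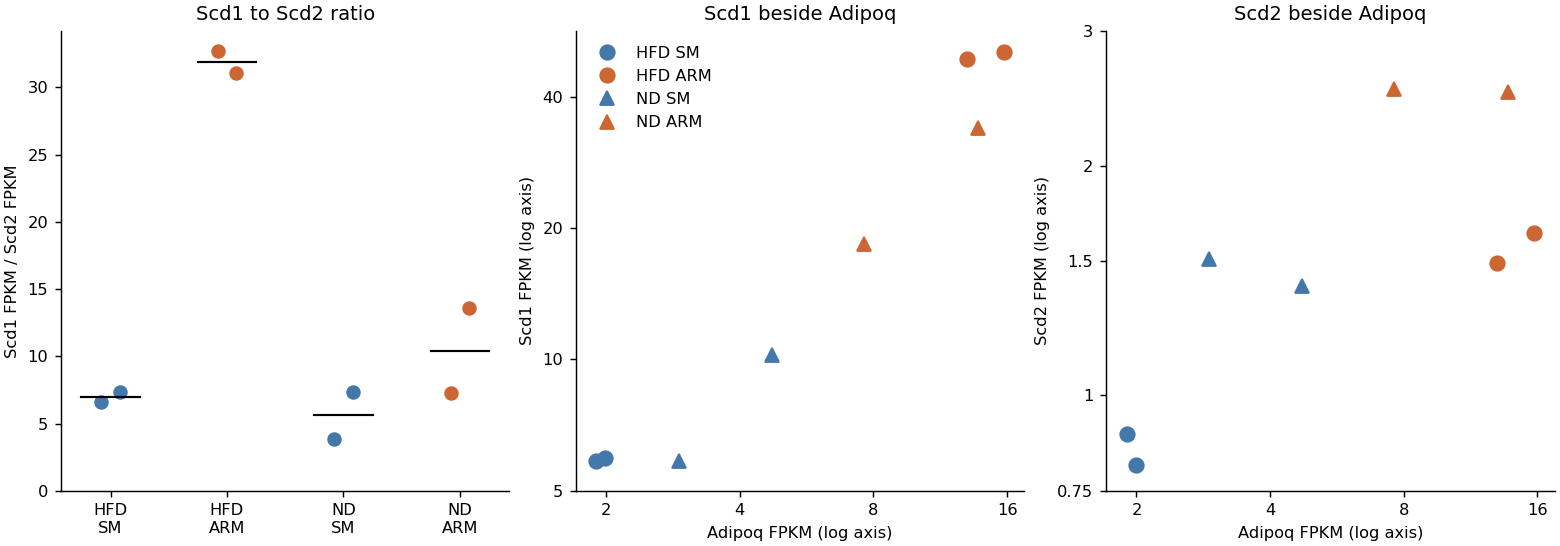
Left, Scd1 FPKM divided by Scd2 FPKM in each library, with a line at the group mean. Middle and right, Scd1 and Scd2 FPKM (vertical) against Adipoq FPKM (horizontal), all on log axes, for SMs (blue) and ARMs (orange) of HFD (circles) and ND mice (triangles): both genes were higher in ARMs than in SMs of the same diet, and at similar Adipoq (12.99 to 15.7 FPKM) Scd1 was 48.8 and 50.7 FPKM in HFD ARMs and 33.9 in ND ARM replicate 2, and Scd2 was 1.49 and 1.63 against 2.50.

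The genes whose pattern was most like that of each desaturase were found by Pearson's r of log2(CPM + 1), centred on each diet's mean, over the 8 libraries and 12343 genes. For Scd1 they included Adipoq (r = 0.998), Cidec (0.995), Car3 (0.995) and Parva (0.993). Adipoq, Cidec and Car3 are among the 12 adipocyte markers. For Scd2 they were Phldb2 (0.995), Fam198b (0.995), Slc6a8 (0.993), Serpina3n (0.992) and Plekhg1 (0.989), none of which is on the marker lists. Scd1 and Scd2 had an r of 0.92 with each other, Scd1 and Me1 0.99, and Scd1 and Acly -0.71. The points share libraries and the ARM against SM contrast, so these values describe the pattern and are not tests.

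Markers of other cell types in the digest moved as well. Endothelial markers were called higher for 6 of 6 in HFD ARMs and 0 of 6 in ND ARMs, and fibroblast and progenitor markers for 5 of 6 and 6 of 6. Mesothelial markers were called for 0 of 5 in HFD ARMs and 4 of 5 in ND ARMs, pericyte and smooth muscle markers for 1 of 5 in each, and lymphocyte, neutrophil and mast cell markers for none of those tested. All 6 endothelial markers still had log2 changes above 0 in ND mice (median 0.77), as did all 5 mesothelial markers in HFD mice (median 0.47). The summed macrophage markers were at 8304 to 8781 FPKM in HFD SMs and 8410 to 8717 in HFD ARMs, and at 10445 to 10511 and 10509 to 10856 in ND mice. The part of these cell types in the members' changes was not tested.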

How the data were processed

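RNA-seq was analysed from 8 libraries of sorted eWAT macrophages, 2 in each of 4 groups, with groups taken from the sample labels. For each diet the authors deposited 1 table with an estimated count, an FPKM and a TPM per gene and library. The mm10 build is from the submitters' processing notes. The aligner, counting program and annotation were not given in the sources used here. Estimated counts were rounded and fitted within each diet in edgeR 4.0.16 (R 4.3.3) with TMM normalization, filterByExpr and the quasi-likelihood test with Benjamini-Hochberg adjustment over all genes tested. The difference between diets was tested in 1 fit of the 8 libraries. FPKM was used for levels, with SD over n = 2 where a mean is given, and TPM as a check. DESeq2 1.42.0, limma 3.58.1 on log2(FPKM + 1) or log2(FPKM + 0.1), other normalizations and filters, the replicate block, the threshold of the study's methods text and each library left out were alternatives. Totals set the depth, and intervals on counts would cover counting error only, as the reads carry no molecular identifiers.

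Named genes are the 10 members, further pathway genes called in either diet or among the 4 of their list with the highest mean FPKM in HFD ARMs, the markers Adipoq, Plin1 and Adgre1, and the 5 genes most correlated with Scd1 and with Scd2, of which 1 is not reported here. Scd3, Me2, Nr1h3 and Lipe were added after their values were seen. The members and lists were chosen with earlier results of these data known. On simulated data, edgeR recovered 85.9% (HFD) and 89.9% (ND) of changed genes at a log2 change of 1, with 2 and 1 false calls. The simulation gave every gene of a diet the same spread, so these figures do not carry over to genes that vary more between libraries. Positions are from GENCODE vM21 and promoter windows from RefSeq, both on GRCm38.p6. Figures were drawn with matplotlib 3.10.9.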

Additional observations from a re-analysis of the deposited data

How the results depend on the processing

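The 5 HFD calls and 5 ND calls among the members depended on the processing as follows. In ND mice, members called higher numbered 1 with DESeq2 and 3 with either limma fit, which lost Scd2 and Thrsp. In HFD mice Scd2 was lost without a filter (edgeR adjusted p = 0.0572) and with limma.

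Genes called higher and lower in HFD mice (595 and 39) became 922 and 95 at the threshold in the study's methods text (log2 fold change of 0.6, unadjusted p under 0.05), 360 and 23 with DESeq2, 167 and 14 without a filter, 319 and 12 with limma on log2(FPKM + 1) and 382 and 23 with limma on log2(FPKM + 0.1). In ND mice (442 and 16) they became 794 and 94, 259 and 8 with DESeq2, 202 and 208 higher with the limma fits, and 40 lower without a filter. Genes whose change differed between diets (22) became 93 with DESeq2 and 41 without a filter.

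No label says that equal replicate numbers share mice, and the same-number deviations correlated at -0.03 (HFD) and 0.21 (ND), with 2 pairs each. With the replicate number as a block, 719 genes were called higher and 67 lower in ND mice, and 187 genes differed between diets, 2 of them members: Scd1 (log2 1.34, edgeR adjusted p = 4.57e-05) and Thrsp (log2 1.43, adjusted p = 0.0242).

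With each library left out in turn, where a lone library was taken to vary like the other groups, members called higher ranged from 4 to 5 (HFD) and from 3 to 5 (ND), and members whose change differed between diets from 0 to 2. Genes called higher ranged from 198 to 587 and lower from 16 to 58 in HFD mice, and from 171 to 617 and 15 to 44 in ND mice. Genes that differed between diets ranged from 0 to 102. The difference of ARMs from SMs in the log2 Scd1 to Scd2 ratio ranged from 1.32 to 1.78 over both diets. It ranged from 2.12 to 2.28 in HFD mice and from 0.43 to 1.36 in ND mice. The sign turned for uncalled values: Elovl6 (-0.46 to 0.060) and Srebf1 (-0.053 to 0.22) in HFD mice, Acly (-0.049 to 0.017), Elovl6 (-0.055 to 0.16), Mlxipl (-0.18 to 0.34) and Srebf1 (-0.0069 to 0.15) in ND mice, and the diet difference of Acaca (-0.21 to 0.091), Fasn (-0.45 to 0.31), Scd2 (-0.024 to 0.11) and Srebf1 (-0.15 to 0.12). The causes were not tested.

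The sign of the diet difference in the Srebf1 change (-0.01) turned with DESeq2 (0.0083), RLE size factors (0.0083), upper-quartile normalization (0.018), library totals (0.043) and no filter (0.017), and that of Srebf1 between diets in SMs (-0.02) with TPM (0.053) and TMM-scaled counts (0.082). With 2 libraries per group, changes under the size of the SEs given were not detectable, and changes above it could also go uncalled. Examples were Acaca in ND mice (log2 0.26 ± 0.114, edgeR adjusted p = 0.279) and Mlxipl in HFD mice (0.75 ± 0.413, adjusted p = 0.324).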
